A study of Mus musculus with 16 samples.

Results

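The proteasome and immunoproteasome genes of microglia of the hippocampus, immune cells that reside in the brain, were compared between young and aged mice. Members were the rows of the deposited table whose symbol starts with Psma, Psmb, Psmc, Psmd, Psme or Psmf followed by a digit. This rule found 46 of 24015 rows, and 45 of them were abundant enough to be tested. The exception, Psmb11, a subunit of the thymus proteasome, was listed at 2.35 normalized counts in the sample young 2 and at 0 in the other samples. Psmc3ip matches the rule by spelling only, since it encodes a recombination factor. The 5 genes Psmb8, Psmb9, Psmb10, Psme1 and Psme2, whose products replace or activate parts of the proteasome in immune responses, were set against the other 41 members.

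The young group held 6 samples from mice of 3 months and the aged group 6 samples from mice of 20 months, with no treatment or altered allele in the labels of either. The strain label is C57BL/6 for all samples but aged 5, labelled C57BL/7, and aged 6, whose technical libraries are labelled C57BL/8 and C57BL/9. Technical libraries of the same sample cannot differ in strain, so these labels may not name the strains of the mice. The cells were live, CD11b-positive and CD45-low, and were sorted after douncing and myelin removal. The labels do not say whether a sample is 1 animal or a pool, so the p-values cover only the spread between samples, which may be technical. The sex of the mice is not given in the sources used here.

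The 26S proteasome degrades proteins that carry ubiquitin chains. Its 20S core is a barrel of alpha rings, which gate the entry, around beta rings, which hold the catalytic sites, and a 19S cap recognises, unfolds and feeds in the substrate. Interferons induce an alternative set of catalytic subunits. The core with these subunits, the immunoproteasome, cuts proteins into peptides for display on class I histocompatibility molecules. The inducible subunits enter the barrel in place of named partners: Psmb8 (beta 5i) for Psmb5, Psmb9 (beta 1i) for Psmb6 and Psmb10 (beta 2i) for Psmb7. Psme1 and Psme2 form PA28, an interferon-inducible cap of the 11S class.

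Promoter sequence was read for the 39 members with an entry in the RefSeq promoter table of GRCm38.p6, each window running from 250 bases before to 50 bases after the annotated start. The windows below show matches in 2 inducible genes, in the constitutive partners Psmb5 and Psmb6, and in Psmb3, another constitutive gene of the beta ring. Capitals mark the motif, and each line is 5′ to 3′ on the strand of the gene. The interferon response element core, read as GAAA and GAAA with 2 bases of any kind between them, matched on either strand in 4 members, Psmb3, Psmd4, Psmd9 and Psme1, against 3.43% of all 32817 windows. The gamma-activated site, TTCNNNGAA, matched in Psmb8 and Psmd2, against 8.29% of windows. The antioxidant response element core, TGACNNNGC, matched in 6 members, Psmb5 and Psmb6 among them, against 12.4% of windows.
Psmb8, gamma-activated site, chr17:34198087-34198116, plus strand: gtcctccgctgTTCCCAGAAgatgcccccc
Psme1, interferon response element core (other strand), chr14:55578493-55578522, plus strand: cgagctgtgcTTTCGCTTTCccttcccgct
Psmb3, interferon response element core (other strand), chr11:97703261-97703290, plus strand: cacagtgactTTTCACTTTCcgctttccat
Psmb5, antioxidant response element core, chr14:54618024-54618053, minus strand: acgtgaagttgTGACGTCGCggcgttgcca
Psmb6, antioxidant response element core, chr11:70525337-70525366, plus strand: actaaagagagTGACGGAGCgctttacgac

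The Psmb8 match began 97 bases before the RefSeq start, inside an exon that GENCODE assigns to Psmb8. The Psme1 match began 9 bases after the start, also in an exon. The Psmb3, Psmb5 and Psmb6 matches lay upstream, at positions -163, -47 and -9 from it. The CCAAT box, read as the letters CCAAT on either strand, was found in 15 members, Psmb9 among them, against 37.4% of all windows; it can overlap the other motifs. A match describes the letters in a window and shows no binding.

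Reads counted in genes, inferred from the smallest steps between a sample's values, numbered 11.4 to 58.2 M per sample. The numbers are estimates for aged 2 and for the 4 samples made of 2 technical libraries each (young 2, young 4, aged 3 and aged 6). Summed microglial markers, given as CPM (the summed value scaled by the sample's total), reached 57590 to 62821 CPM in young and 53665 to 58372 CPM in aged samples, and none of the 6 passed the test in either direction. Samples aged 5 and aged 6, the same that carry other strain labels, were most often the lowest and the highest for these genes. Aged 5 was the lowest of the 12 samples for 23 of 45 members, 10 of the 14 constitutive core genes among them. Aged 6 was the highest for 15 members, 9 of the 14 among them. Their median deviations from the aged mean over those 14 genes were -0.28 and 0.21 on the log2 scale. Young 2, labelled C57BL/6, was at -0.20 from the young mean over the same genes, and was the lowest sample for 4 of them. Over all tested genes, the deviation moved with transcript length: in aged 5 the median was -0.15 for the third of genes with the shortest transcripts and 0.13 for the third with the longest, and in aged 6 it was 0.15 and -0.15. Smaller length trends were seen in young samples, at -0.069 and 0.080 in young 2 and 0.11 and -0.081 in young 4. The part of transcript length or of the strain label in the members' values was not tested.

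**Figure D1:**
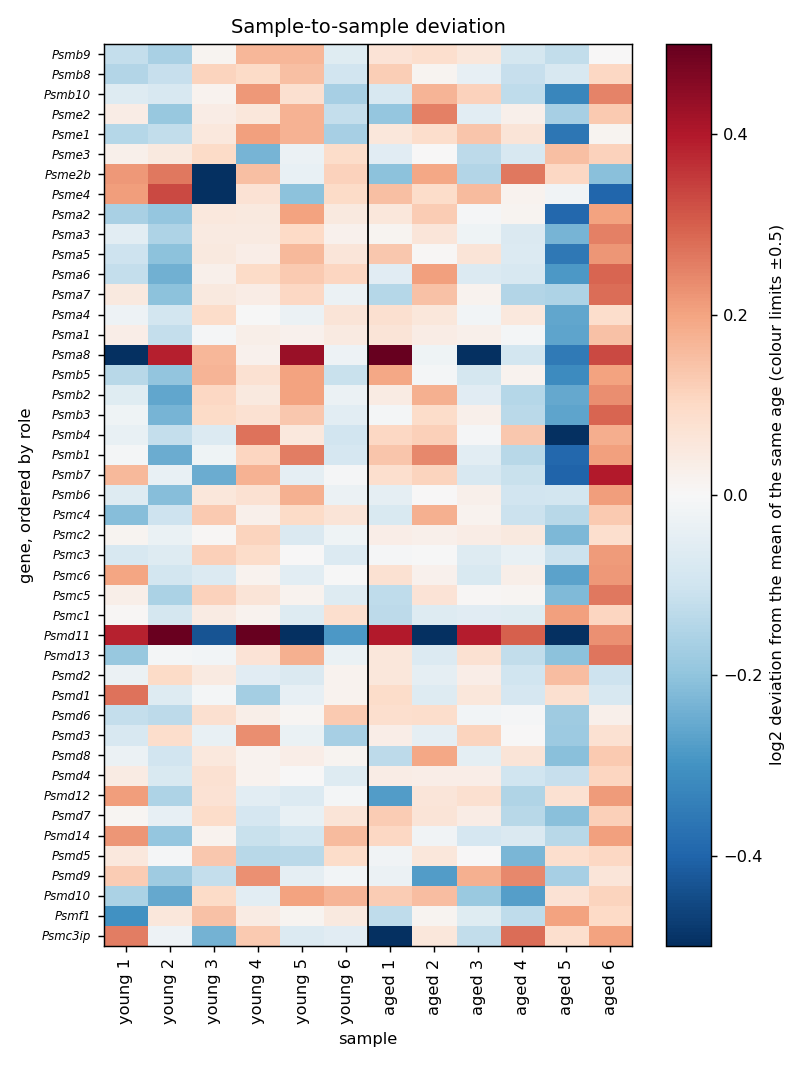
Log2 deviation of each tested member (vertical axis, ordered by role) in each of the 12 samples (horizontal axis) from the mean of the same age, with colour limits at ±0.5. The column of aged 5 is mostly blue and that of aged 6 mostly red, and the row of Psmd11 changes between strong red and strong blue within both ages.

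At 20 months no proteasome gene was called higher or lower: 0 of 45 members passed an adjusted p of 0.05 in either direction (limma, Benjamini-Hochberg over all 11579 tested genes). Over all tested genes, 1.27% were called higher and 0.458% lower. At an unadjusted p under 0.05, 2 members were higher, Psmb8 and Psmb9, and 0 were lower, against 5.84% and 4.98% of all tested genes. In the count tests on 7 samples, edgeR and DESeq2 each called 0 members at the adjusted threshold, and each gave 1 higher (Psmb9) and 2 lower (Psmd14 and Psma7) at an unadjusted p under 0.05. Over all genes, edgeR called 0.845% and DESeq2 1.93%; at the unadjusted p, edgeR had 5.47% higher and 3.38% lower, and DESeq2 5.67% and 3.58%. The median log2 fold change was 0.0045 over the 45 members and 0.0016 over all tested genes. Of all tested genes, 50.5% were above 0. The median was 0.13 over the 5 inducible genes, all 5 of which were above 0 in limma on all samples. In edgeR on 7 samples, Psmb10 and Psme2 were below 0, at -0.050 and -0.014. Over the other 40 tested members the limma median was 0.0010, with 20 above and 20 below 0. That balance moved with the samples used: of the 45 members, 12 were above 0 in edgeR and in DESeq2 on 7 samples (median -0.070 in edgeR), 17 in limma on the 8 samples with 1 library (median -0.048) and 16 without aged 6 (median -0.025). In bulk samples, fewer cells of a type and less RNA per cell cannot be told apart.

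**Figure D2:**
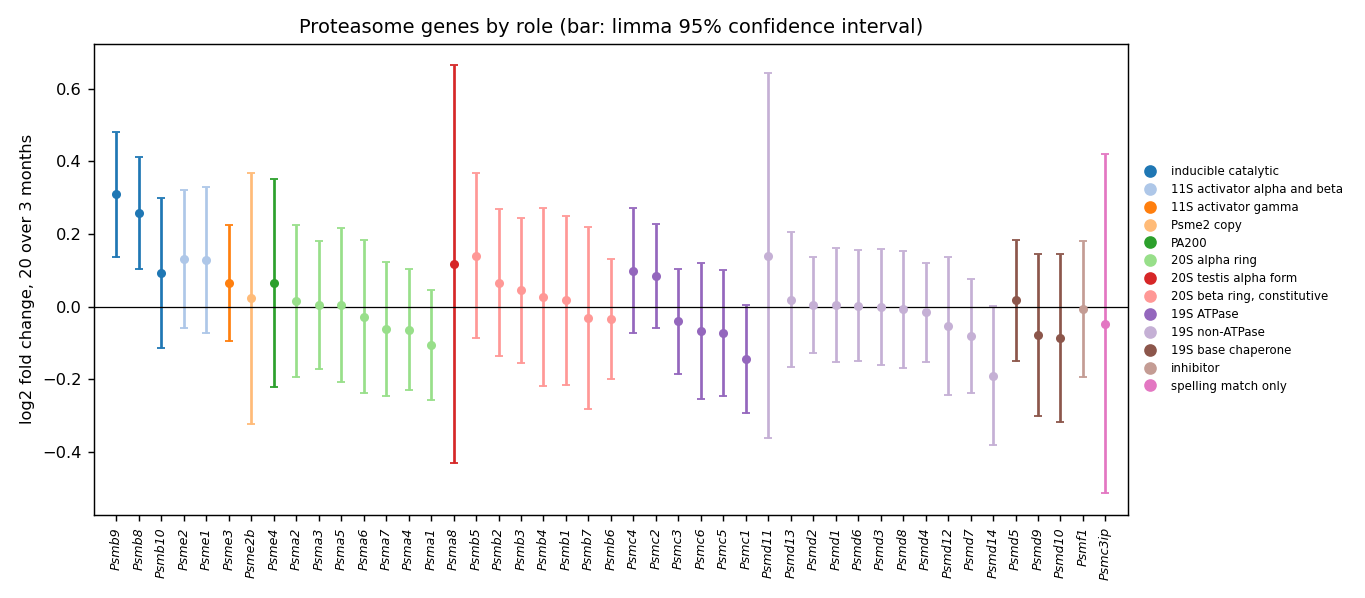
Log2 fold change of 20 over 3 months (vertical axis) for the 45 tested members, coloured by role, with the 95% confidence interval from limma. Psmb9 and Psmb8, at 0.31 and 0.26, stand above the other members, whose values lie between -0.19 and 0.14.

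Psmb9, the inducible subunit that replaces the caspase-like site, was the member nearest to the threshold. It lies at chr17:34181987-34187764 on the minus strand (GENCODE, mm10), within the class II region of the histocompatibility complex. Young samples 1 to 6 held 1017, 986, 1114, 1238, 1238 and 1058 normalized counts, and aged samples 1 to 6 held 1433, 1450, 1423, 1287, 1258 and 1371. Every aged sample lay above every young sample, the only member of which this was true in either direction; 1.16% of all tested genes were fully separated upward and 0.717% downward. The log2 fold change was 0.31 ± 0.082 (SE, n = 6 against 6), a fold of 1.24 with a 95% interval of 1.10 to 1.40, at an adjusted p of 0.070 in limma. Over the alternatives the adjusted p ran from 0.054 to 0.54. Psmb9 and Tap1, a peptide transporter gene on the other strand, overlap, and 12.5% of the 50-base stretches of Psmb9 also occur in Tap1. The library kit does not mark strand, so reads from that overlap cannot be told apart; the Tap1 log2 fold change was 0.059 with an adjusted p of 0.94.

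Psmb8, the inducible subunit of the chymotrypsin-like site, lies close by at chr17:34197721-34201454 on the plus strand. The young values were 3175, 3245, 3801, 3755, 3898 and 3286 normalized counts, and the aged values were 4576, 4242, 4088, 3878, 3972 and 4512. All 6 aged samples exceeded 5 of the 6 young samples, and the ages overlapped only where aged 4, at 3878, fell below young 5, at 3898. The log2 fold change was 0.26 ± 0.074 (SE, n = 6 against 6), which puts the fold between 1.07 and 1.33 (95% interval), at an adjusted p of 0.10 in limma. The range of the adjusted p over the alternatives was 0.092 to 0.59.

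Psmb10, the inducible subunit of the trypsin-like site, lies at chr8:105935735-105938444 on the minus strand. Its young values were 2073, 2051, 2197, 2519, 2290 and 1931 normalized counts, and its aged values were 2190, 2603, 2503, 2117, 1847 and 2745. The ages overlapped widely, with the lowest value of all in aged 5 and the highest in aged 6. Its log2 fold change was 0.093 with a 95% interval of -0.11 to 0.30 (adjusted p = 0.84, limma), and it was -0.050 in edgeR on the 7 samples with recovered reads.

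Psme1, the alpha subunit of PA28, lies at chr14:55578123-55581529 on the plus strand. Young samples held 1802, 1828, 2062, 2291, 2247 and 1773 normalized counts, and aged samples held 2261, 2310, 2394, 2277, 1695 and 2198. Of the aged samples 5 were above the young median, and aged 5 was the lowest of all 12. For Psme1 the log2 fold change was 0.13 with a 95% interval of -0.073 to 0.33 (adjusted p = 0.75, limma). Without aged 5 it was 0.20 and still not called, at an adjusted p of 0.30, and in edgeR on 7 samples it was 0.073.

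Psme2, the beta subunit of PA28, lies near Psme1 at chr14:55587441-55591113 on the minus strand. Its young values were 1613, 1377, 1613, 1634, 1774 and 1448 normalized counts and its aged values 1506, 2050, 1659, 1751, 1535 and 1882. The ages overlapped, and 4 aged samples were above the young median. The log2 fold change was 0.13 with a 95% interval of -0.060 to 0.32 (adjusted p = 0.72, limma), and it was -0.014 in edgeR. Psme2b, a copy of the gene with a single exon, shares 59.3% of the 50-base stretches of Psme2, so the counts of both are uncertain. Psme2b held 146 to 287 normalized counts in young and 210 to 292 in aged samples.

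The constitutive partner Psmb5, at chr14:54614119-54618022 on the minus strand, carries the chymotrypsin-like site. It held 602, 578, 745, 697, 761 and 613 normalized counts in young and 835, 724, 687, 740, 587 and 839 in aged samples. The values overlapped, and the log2 fold change was 0.14 with a 95% interval of -0.087 to 0.37 (adjusted p = 0.76, limma); in edgeR on 7 samples it was 0.077. Other annotated genes share 57.1% of the 50-base stretches of Psmb5, which makes its count uncertain.

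Psmb6, at chr11:70525367-70527858 on the plus strand, carries the caspase-like site. It held 2431, 2194, 2643, 2681, 2874 and 2488 normalized counts in young and 2406, 2491, 2530, 2322, 2330 and 2869 in aged samples. The aged values lay inside the young range, and the log2 fold change was -0.033 with a 95% interval of -0.20 to 0.13 (adjusted p = 0.94, limma).

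Psmb7, at chr2:38588036-38644087 on the minus strand, carries the trypsin-like site. Young samples held 894, 779, 672, 903, 774 and 797 normalized counts and aged samples 829, 845, 740, 724, 592 and 1030. The lowest and the highest value were both from aged samples, again 5 and 6. The log2 fold change was -0.032 with a 95% interval of -0.28 to 0.22 (adjusted p = 0.96, limma). The exons of Psmb7 and Nek6, on the other strand, share 28.1% of the 50-base stretches of Psmb7.

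**Figure D3:**
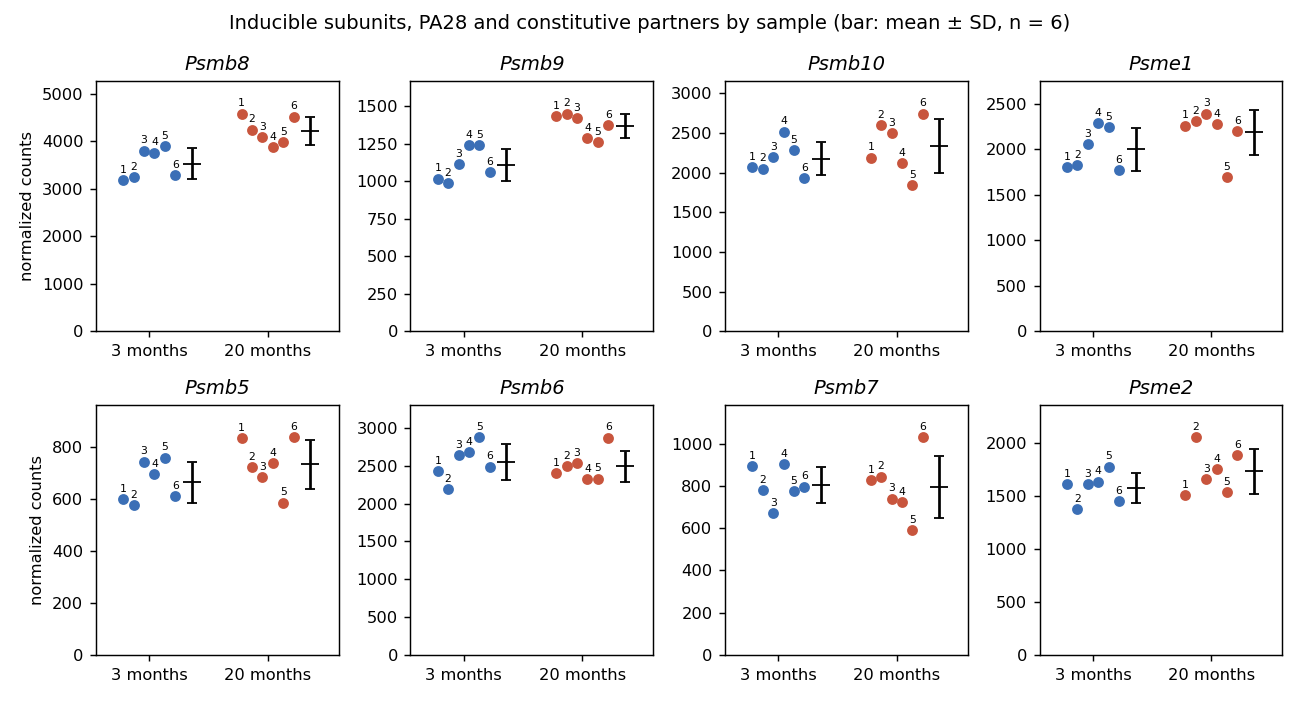
Normalized counts (vertical axis, from 0) of the inducible subunits, both PA28 genes and the constitutive partners at 3 and 20 months (horizontal axis), with a point per sample, numbered, and bars for the mean ± SD (n = 6). The ages separate fully for Psmb9, overlap in 1 pair of samples for Psmb8, and overlap widely in the other panels.

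Because each inducible subunit takes the place of a partner, the ratio of the 2 transcripts was taken within each sample. The ratio of Psmb9 to Psmb6 was higher in aged samples. It was 0.418, 0.450, 0.422, 0.462, 0.431 and 0.425 in young samples 1 to 6 and 0.596, 0.582, 0.562, 0.555, 0.540 and 0.478 in aged samples 1 to 6. Each of the 6 aged ratios exceeded each young ratio, by a fold of 1.27 in the mean log ratio. The two-sided exact permutation test over samples gave p = 0.0022, the smallest that 924 assignments allow, and 0.0065 after Benjamini-Hochberg adjustment over the 3 ratios. Since Psmb9 and this ratio rest on the same counts, the ratio is no second measurement of Psmb9.

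The ratio of Psmb8 to Psmb5 was 5.27, 5.61, 5.09, 5.38, 5.12 and 5.36 in young samples and 5.48, 5.85, 5.95, 5.24, 6.76 and 5.37 in aged samples. The highest ratio came from aged 5, and 3 aged samples exceeded every young one. The fold was 1.09, with p = 0.061 in the exact permutation test and 0.091 adjusted; without aged 4 the adjusted p was 0.032, and without aged 5 the log2 difference went from 0.12 to 0.072, at an adjusted p of 0.17. The ratio of Psmb10 to Psmb7 was 2.32, 2.63, 3.26, 2.79, 2.96 and 2.42 in young and 2.64, 3.08, 3.38, 2.92, 3.12 and 2.66 in aged samples. The ages overlapped, with a fold of 1.09 and p = 0.21 before and after adjustment in the exact permutation test. Whether the ratios changed by different amounts was not tested.

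**Figure D4:**
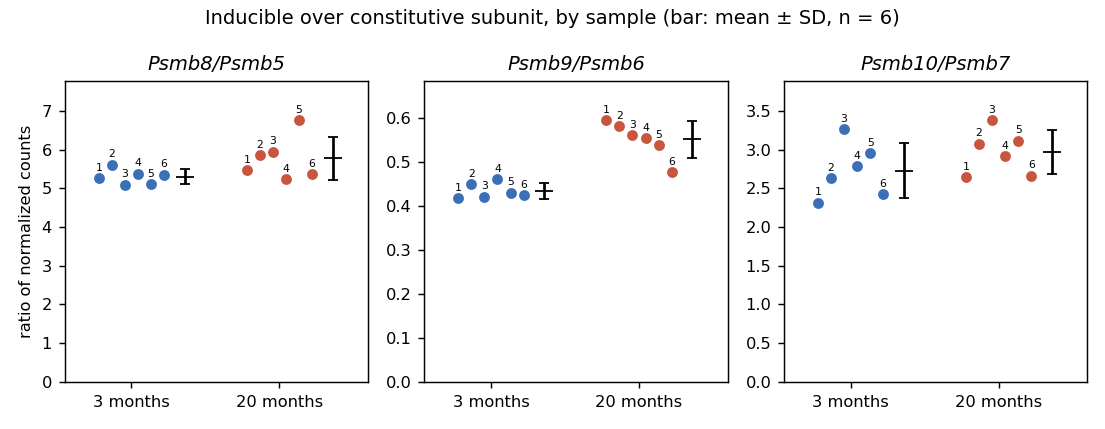
Ratio of normalized counts of each inducible subunit to its constitutive partner (vertical axis, from 0) at 3 and 20 months (horizontal axis), with a point per sample, numbered, and bars for the mean ± SD (n = 6). The ratio of Psmb9 to Psmb6 runs from 0.418 to 0.462 in young and from 0.478 to 0.596 in aged samples, and the other ratios overlap.

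Levels of different genes were compared per kb of transcript, taking 1 annotated coding transcript per gene. In young samples the inducible Psmb8 reached 2166 normalized counts per kb against 741 for Psmb5, and Psmb10 reached 1660 against 692 for Psmb7. Psmb9 went the other way, with 820 per kb against 3198 for Psmb6. The mean ratios per kb were 2.93 in young and 3.18 in aged samples for Psmb8 over Psmb5, 0.256 and 0.325 for Psmb9 over Psmb6, and 2.40 and 2.62 for Psmb10 over Psmb7. Transcripts of inducible catalytic subunits were present at both ages, and for Psmb8 and Psmb10 at a higher level per kb than those of their partners. Sequence shared with other genes, given above for Psmb5 and Psmb7, bears on these values.

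**Figure D5:**
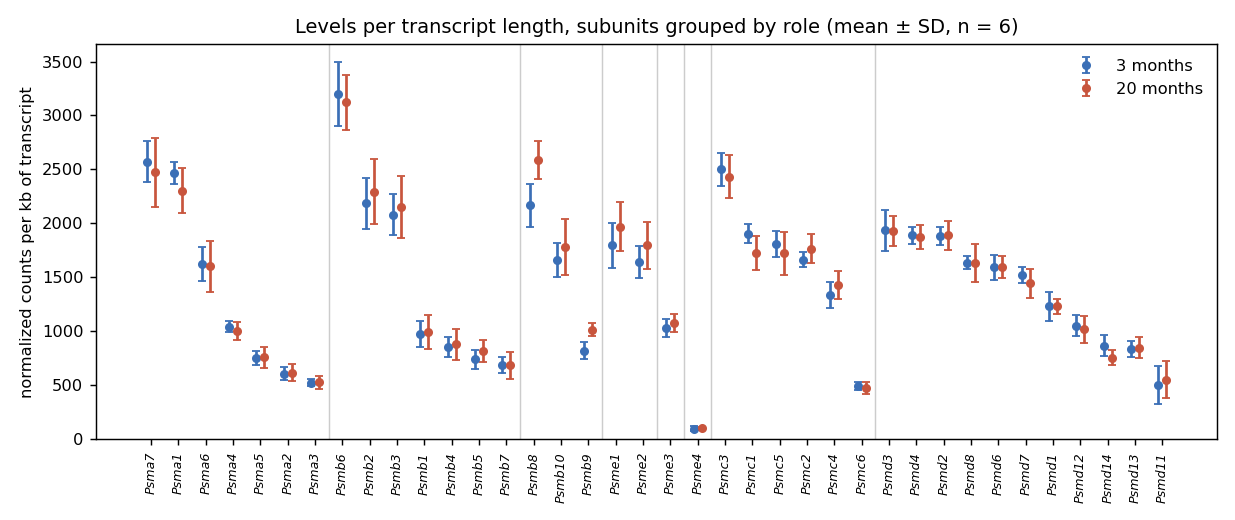
Normalized counts per kb of transcript (vertical axis, from 0; mean ± SD, n = 6) at 3 and 20 months for the subunits of the core, the caps and the activators, grouped by role between grey lines. Psmb6 is the highest in both ages and Psme4 the lowest, and the points of the 2 ages lie apart by more than their bars for Psmb9 and Psmb8.

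The 14 constitutive genes of the 20S core had a median log2 fold change of 0.0057, with 8 above and 6 below 0. The 7 alpha-ring genes ran from -0.11 for Psma1 to 0.015 for Psma2, and the 7 constitutive beta genes from -0.033 for Psmb6 to 0.14 for Psmb5. None passed the test, with adjusted p-values of 0.72 to 0.99 in limma. The core transcripts differed more among themselves than between ages: in young samples they ran from 525 normalized counts per kb for Psma3 to 3198 for Psmb6. The transcripts taken for these genes were 2.85 and 0.798 kb long, and values per kb depend on the transcript taken. Other annotated genes share 22.0% of the 50-base stretches of Psma3 and 2.67% of those of Psmb6. For the core genes Psma5 and Psmb3 the shares were 55.4% and 55.8%, so levels compared among core genes are uncertain. Psma8, an alpha subunit of the testis, was low, at 44.2 to 119 normalized counts in young and 63.4 to 159 in aged samples.

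Of the 6 ATPase genes of the 19S base, which unfold the substrate, 2 were above and 4 below 0, from -0.14 for Psmc1 to 0.099 for Psmc4. Psmc1 was at 2851 to 3214 normalized counts in young and 2505 to 3158 in aged samples, and aged 5 alone of the aged samples exceeded the young median; its adjusted p was 0.49 in limma. The 11 non-ATPase genes of the cap had a median log2 fold change of -0.0012. The chaperones of base assembly, Psmd5, Psmd9 and Psmd10, ran from -0.086 to 0.017. The remaining regulators were Psme3, the nuclear PA28 gamma, at 0.065, Psme4, the PA200 cap, also at 0.065, and the inhibitor Psmf1 at -0.0058.

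Psmd14, the deubiquitinase of the cap that releases ubiquitin chains, had the lowest fold change of the members. It lies at chr2:61711694-61800376 on the plus strand. Its young values were 1545, 1161, 1344, 1227, 1246 and 1480 normalized counts, and its aged values were 1250, 1148, 1098, 1107, 1057 and 1342. The aged values were shifted down with overlap, and only aged 6 was above the young median. The log2 fold change was -0.19 with a 95% interval of -0.38 to 0.00090 (adjusted p = 0.46, limma).

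Psmd11, a scaffold subunit of the lid, had the highest log2 fold change outside the 5 inducible genes in limma on all samples, 0.14, with a 95% interval of -0.36 to 0.64 (adjusted p = 0.91, limma). Psmb5 was equal to it at this rounding, and the value for Psmd11 ran from 0.0075 without young 5 to 0.30 without aged 5, and was 0.40 in edgeR on 7 samples. The gene lies at chr11:80428615-80473248 on the plus strand. Young samples held 1775, 1918, 1007, 1934, 856 and 1114 normalized counts, and aged samples held 1973, 1062, 1968, 1845, 851 and 1755. The samples fell at 2 levels in both ages: young 3, 5 and 6 and aged 2 and 5 lay between 851 and 1114, and the other samples between 1755 and 1973. The 4 samples made of 2 technical libraries were all at the upper level, and so were young 1, aged 1 and aged 4. The part of the library number in these levels was not tested. An annotated neighbour, A730017L22Rik, shares 18.9% of the 50-base stretches of Psmd11.

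After the mean of each age was subtracted, the 5 tested genes outside the family whose log2 values were most like the mean of Psmb8, Psmb9 and Psmb10 were Lsm4, Etfb, Cuta, Sod1 and Chmp2a, with Pearson's r of 0.93 to 0.95 over the 12 samples. Their transcripts are all under 1 kb, and the part of transcript length in this likeness was not tested. The same measure was taken for Psmd11, a choice made after its values were seen. Rbm47, Abhd15, Trim28, Gsk3b and Gcnt7 were most like it, with r of 0.96 to 0.98. Gsk3b, a kinase gene, held 457 to 522 normalized counts in young 3, 5 and 6 and 780 to 895 in the other young samples.

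Genes that act with the proteasome were taken as lists. Of 18 tested partners outside the naming rule, such as the assembly factors Pomp and Psmg1 and the deubiquitinase Usp14, 0 were called and 13 had a log2 fold change above 0 (median 0.076). Zfand5, a proteasome activator in the list, was lower in every aged than in every young sample, with means of 4503 and 3857 normalized counts, at an adjusted p of 0.12 in limma. Of 5 genes of the NRF1 route, which induces constitutive subunits when proteasome activity is short, 0 were called. All 6 ubiquitin and ubiquitin-activating genes were above 0, with a median of 0.18, and 0 were called.

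Of 12 genes of the class I pathway, 3 were called higher and 0 lower, against 1.27% and 0.458% of all tested genes. The first was Nlrc5, the class I transactivator, at a fold of 3.47 (adjusted p = 0.0035, limma). The others were H2-D1 at 1.93 (adjusted p = 0.0012, limma) and H2-K1 at 1.63 (adjusted p = 0.018, limma). In aged 6 Nlrc5 was at 121 normalized counts, inside the young range of 49.0 to 125. The other aged samples held 244 to 584 for this gene. None of the genes that supply peptides, such as Tap1, Tap2 and Tapbp, was called. H2-D1 and H2-K1 encode class I heavy chains of similar sequence, so reads may be split between them. The transporter gene Tap2 had a log2 fold change of 0.059 and B2m, the class I light chain, one of 0.39 at an adjusted p of 0.070 in limma. The list's median was 0.098, with 9 genes above and 3 below 0. Pdia3 was the lowest, at -0.21 (adjusted p = 0.12, limma). The H2-K1 call was lost under some alternatives, such as leaving out young 5, young 6 or aged 3. Whether the class I genes changed more than Psmb8 and Psmb9 was not tested.

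Cell types other than microglia can carry immunoproteasome transcripts, and their marker lists were summed. Monocyte markers ranged from 2.11 to 4.48 CPM in young and from 4.10 to 5.86 CPM in aged samples, with 0 of the 3 tested markers called. Dendritic cell markers ranged from 0.440 to 2.64 CPM and from 2.18 to 4.02 CPM, with 0 of 1 called. T and NK cell markers stayed at 0.457 CPM or below in every sample, and no marker of that list was abundant enough to be tested. B cell markers were at 36.2 to 45.8 CPM in young and 27.5 to 34.9 CPM in aged samples, with Cd79b called lower of 1 tested, a call kept in 11 of 24 alternatives. Border macrophage markers were at 7.52 to 13.6 CPM in young and 5.51 to 24.8 CPM in aged samples, with 0 of 4 called, and neutrophil markers stayed at 3.55 CPM or below. Choroid plexus markers were at 9.66 to 48.3 CPM and 16.0 to 130 CPM, with 0 of 4 called, and of the 3 tested astrocyte markers Aldh1l1 was called higher, a call kept in 9 of 23 alternatives. Astrocyte markers had the largest sums outside microglia, at 206 to 258 CPM in young and 213 to 277 CPM in aged samples. Oligodendrocyte markers were at 55.6 to 83.1 CPM and 66.4 to 92.1 CPM, and endothelial markers at 55.3 to 73.2 CPM and 46.8 to 80.6 CPM. Neuron markers stayed at 4.13 CPM or below. Of the tested markers of oligodendrocytes, neurons and endothelial cells, 0 were called. The monocyte and dendritic cell sums ranged higher in aged samples, with overlap between the ages. They were not compared with Psmb9 and Psmb8 sample by sample, and their part in the values of those genes was not tested.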

How the data were processed

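Values came from a single table by the authors, which holds normalized counts per gene (a non-negative signal) in 12 sample columns. bcl2fastq, STAR, SAMtools and DESeq2 are named in the submitters' processing notes, with the build mm10; tool versions and the counting rules were not given in the sources used here. Values of 7 columns were whole multiples of 1 step, from which reads were recovered. The step of aged 2, a sample with 1 library, is too close to 1 for that check, so the count tests used 7 samples in place of the 8 planned. The columns of the 4 samples with 2 technical libraries match means of both. Depth, inferred from the steps, was 11.4 to 58.2 M reads counted in genes.

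Genes with at least 10 normalized counts in at least 6 of 12 samples were tested as log2(value + 1) with limma 3.58.1 in R 4.3.3, using a mean-variance trend. Fold changes are on that scale, which understates those of low genes. The ratios had exact permutation tests. Alternatives used edgeR 4.0.16, DESeq2 1.42.0, other scalings, filters and pseudocounts, each sample left out, and a replicate block. The limma test was checked on simulated data that had the same dispersion for every gene. Transcript lengths, exons and positions came from GENCODE vM21. Values were given per sample for the inducible genes, PA28, their partners and the other members with the highest and lowest fold change; other genes were given by list. Members, lists and this rule were chosen with earlier results of these data known. Results of 1 gene list and 1 marker gene are not reported here.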

Additional observations from a re-analysis of the deposited data

Results flagged for a closer look

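In 9 of 96 groups of 6 samples, 1 sample lay far from the other 5; chance gives about 1 in 20 such groups. In young mice, young 2 was low for Psma1, an alpha-ring gene, at 2728 normalized counts, against 2952 to 3054 in the others. Young 1, the sample with the fewest reads, was high for the ATPase gene Psmc6, at 1265 against 1037 to 1116, and low for the inhibitor Psmf1, at 1110 against 1379 to 1512. In aged mice, aged 5 was low for 4 members: the alpha-ring gene Psma4 at 971, against 1152 to 1236, the beta-ring gene Psmb4 at 707, against 1022 to 1165, the ATPase gene Psmc2 at 2691, against 3199 to 3338, and the PA28 gene Psme1 at 1695, against 2198 to 2394. Aged 6 was high for the ATPase gene Psmc3, at 4600 against 3690 to 3969, and low for Psme4, the PA200 gene, at 503 against 654 to 738.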

How the results depend on the processing

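Under all 24 alternatives, 0 members were called higher and 0 lower. Calls over all genes numbered 200 in limma on all samples, 78 in limma on the 8 samples with 1 library, 97 in edgeR and 222 in DESeq2 on the same 7 samples, and 145 with a replicate block. Replicate numbers did not pair the samples: same-numbered samples correlated at -0.12 to 0.11 in their deviations, and in both directions only number 1 matched its own best. The replicate block for the ratios pairs samples by these numbers all the same. With it the log2 difference of Psmb10/Psmb7 was 0.12 at an adjusted exact p of 0.047, and that of Psmb9/Psmb6 was also at 0.047. Both were at 0.031 before adjustment, the smallest exact p of that design. Without the block, the exact permutation test gave Psmb10/Psmb7 an adjusted p of 0.21. Leaving out 1 sample each time gave 0.072 to 0.15 for Psmb8/Psmb5, which passed only without aged 4 (adjusted exact p = 0.032). In the samples with 1 library Psmb9/Psmb6 was 0.42 (adjusted exact p = 0.086), where the smallest unadjusted p of the design is 0.029. Without aged 5 and 6 it was 0.40 (adjusted exact p = 0.014).

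H2-K1 lost its call with no filter, in the samples with 1 library and without young 5, young 6 or aged 3 (adjusted p up to 0.068, limma). Cd79b lost its call in 13 of 24, with adjusted p of 0.028 to 0.21. Aldh1l1 lost it in 14 of 23 (adjusted p 0.0027 to 0.18; it was not tested with the minimum of 50 normalized counts). Over the alternatives, log2 fold changes ran from -0.15 to 0.0022 for Psmb6, from -0.13 to 0.049 for Psmb7 and from -0.050 to 0.16 for Psmb10. Psmb11 was tested only with no filter on low values, and was not called.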
